A study of Homo sapiens with 6 samples.

Results

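Membrane-bound mucins are large glycoproteins that are anchored in the apical membrane of epithelial cells and carry dense O-linked glycans. The genes examined were MUC1, MUC4, MUC12, MUC13, MUC15, MUC16, MUC17 and MUC20, and every probe set whose RefSeq transcript belongs to one of them was taken. The array held 9 such probe sets for 7 of the 8 genes, out of 1259 probe sets and 927 named genes in all: 3 for MUC1 and 1 for each of the others. No probe set was matched to MUC12, but 216 probe sets carry no symbol here, so its presence among them was not tested. Total RNA was compared between 3 untreated and 3 treated samples of HCT-15, a cell line established from a human colorectal tumour. The agent, 5-aza-2'-deoxycytidine (decitabine), replaces cytosine in newly made DNA and traps DNA methyltransferases, so that methylation is lost as cells divide. Neither dose nor duration of treatment is stated in the labels, which name no other agent and no other difference between the groups. The submitters asked about glycan-related genes because the treated cells display more sialyl Lewis x, a selectin-binding glycan that mucins can carry.

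The part of a membrane-bound mucin outside the cell is rich in serine, threonine and proline. Polypeptide GalNAc transferases start O-glycans on the serines and threonines, and other enzymes then extend, branch and cap them. MUC1, MUC12, MUC13, MUC16 and MUC17 have a SEA domain, which in MUC1 is cleaved as the protein folds and leaves a glycosylated subunit bound to a membrane-spanning one. MUC4 has NIDO, AMOP and VWD domains in its place, and MUC15 and MUC20 have neither set. In colon, MUC1, MUC4, MUC12, MUC13 and MUC17 are known as parts of the epithelial surface layer.

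Since human DNA methyltransferases act mainly on cytosines that are followed by guanine, the promoters of the 3 mucins that rose and of 1 that was not called (MUC17) are shown with each CG in capitals. Each is the 250 bases before the RefSeq gene start (build GRCh38.p14), read 5′ to 3′ on the gene's own strand.
MUC1 promoter, chr1:155192916-155193165, minus strand: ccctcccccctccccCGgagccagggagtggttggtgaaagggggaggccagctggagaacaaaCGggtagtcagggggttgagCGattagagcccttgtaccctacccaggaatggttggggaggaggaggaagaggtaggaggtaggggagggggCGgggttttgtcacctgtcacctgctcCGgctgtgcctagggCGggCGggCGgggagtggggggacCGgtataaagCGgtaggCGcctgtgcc
MUC4 promoter, chr3:195811930-195812179, minus strand: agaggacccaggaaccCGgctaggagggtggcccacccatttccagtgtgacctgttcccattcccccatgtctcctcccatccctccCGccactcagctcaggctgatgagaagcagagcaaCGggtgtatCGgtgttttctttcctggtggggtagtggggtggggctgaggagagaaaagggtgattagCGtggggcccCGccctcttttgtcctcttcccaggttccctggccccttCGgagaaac
MUC13 promoter, chr3:124934752-124935001, minus strand: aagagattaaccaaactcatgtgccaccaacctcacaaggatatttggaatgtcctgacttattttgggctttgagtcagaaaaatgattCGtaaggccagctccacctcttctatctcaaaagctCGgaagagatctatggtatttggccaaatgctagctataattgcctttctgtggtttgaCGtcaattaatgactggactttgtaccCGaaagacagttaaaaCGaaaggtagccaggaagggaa
MUC17 promoter, chr7:101019831-101020080, plus strand: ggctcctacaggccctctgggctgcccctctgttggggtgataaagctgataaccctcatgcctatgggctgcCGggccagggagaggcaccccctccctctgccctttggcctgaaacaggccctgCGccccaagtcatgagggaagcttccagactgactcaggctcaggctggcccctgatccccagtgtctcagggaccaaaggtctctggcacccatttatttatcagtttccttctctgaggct
The letters CG, which read the same on both strands, stood 11 times in the MUC1 window shown and 12 times in the window of a second RefSeq start, 6 bases away. They stood 7 times in that of MUC4, 5 times in that of MUC13 and 2 times in that of MUC17. MUC16 had 6 in each of its windows, and MUC12 had 7. At least 1 CG was present in 93.95% of the 35114 promoter windows in the table, with a median of 11. The median was 16 over the 1027 windows of 727 genes on the array, 20 for genes that rose, 17 for those that fell and 14 for those not called. The windows of MUC4, MUC13, MUC16 and MUC17 were thus below each of these medians, and those of MUC1 were below each median of the array's genes. MUC13 also differed in composition, with 41.6% G and C against 60% to 66% in the other mucin windows except that of MUC12 (57.6%). These counts describe letters, and methylation was not measured in these samples. RefSeq windows were matched for 6 of the 8 genes, but not for MUC15 or for MUC20, the 1 mucin that fell. Of the windows matched, that of MUC17 held the fewest CG. Those of MUC16, also not called, held more than that of MUC13, which rose.

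Every value below is a log2 RMA value, in which 1 unit is a doubling of signal. Array medians were 5.84, 5.81 and 5.88 in untreated replicates 1 to 3 and 5.90, 5.92 and 5.91 in treated replicates 1 to 3. All treated medians were thus above all untreated ones. Arrays of 1 group correlated at 0.9974 to 0.9987 across probe sets, against 0.9817 to 0.9844 between groups. Untreated replicate 3 was grouped by its source name and treatment entry, against its title, which reads as treated. The sample code in that title begins with C, as do those of the other untreated arrays. The titles of the treated arrays have the same wording, treated with the word control in brackets, and their sample codes begin with T. Untreated replicate 3 correlated at 0.9978 and 0.9982 with the other untreated arrays and at 0.9831 to 0.9844 with the treated ones. Its values are given with the others, and the log2 changes of the mucins and the differences between the MUC1 sets are also given without it. Of 8 colon epithelial markers only LGALS4 (9.54 untreated) and MUC2 (5.57) were matched on the array, so the tissue label could be checked against these alone. LGALS4 fell to 9.03 in treated cells and MUC2 was not called, against 19.7% of all genes rising and 17.6% falling. Of 7 leukocyte markers measured of 8, 2 rose (CD33 and KLRD1) and 1 fell (CD22), against the same shares of all genes. Array means were 4.89 to 4.99 in untreated and 4.98 to 5.08 in treated cells. PTPRC, the gene that defines leukocytes, had no matched probe set. Of 6 stromal and endothelial markers measured of 8, 1 rose (PECAM1), against the same shares, with means of 3.65 to 3.88 and 3.78 to 3.83. PECAM1 and KLRD1 were each not called in 5 of 12 alternatives: both after median centring and without untreated replicate 1, untreated replicate 2 or treated replicate 1, PECAM1 also without treated replicate 3 and KLRD1 also without treated replicate 2. CD22 was not called without untreated replicate 2. The part of other cell types in the mucin results was not tested. The labels do not state whether replicates were separate cultures; if they were not, the p-values reflect technical spread alone. In bulk RNA, more cells that express a gene and more RNA per cell cannot be told apart.

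Treated cells had more MUC1, MUC13 and MUC4 RNA and less MUC20 RNA. MUC1 was 2.47-fold higher, MUC13 1.95-fold higher and MUC4 1.53-fold higher, and MUC20 was 1.90-fold lower. MUC15, MUC16 and MUC17 did not pass the test. By gene, 3 of the 7 rose and 1 fell in limma's moderated test, Benjamini-Hochberg adjusted over all probe sets (adjusted p under 0.05), against a background of 19.7% of the 927 genes rising and 17.6% falling. Over probe sets, 5 of 9 rose and 1 fell, against 18% and 16.8% of all 1259, but 3 of the 5 rises are MUC1. The groups did not overlap for 6 of the 7 genes, against 48% of all genes. The median log2 change of the 7 genes was 0.16, and that of all named genes was -0.0036. Counts over the whole array depended on scaling, with 227 rises and 211 falls as deposited and 197 rises and 311 falls with array medians set equal. The mucin calls were 3 rises and 1 fall under each of these.

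**Figure D1:**
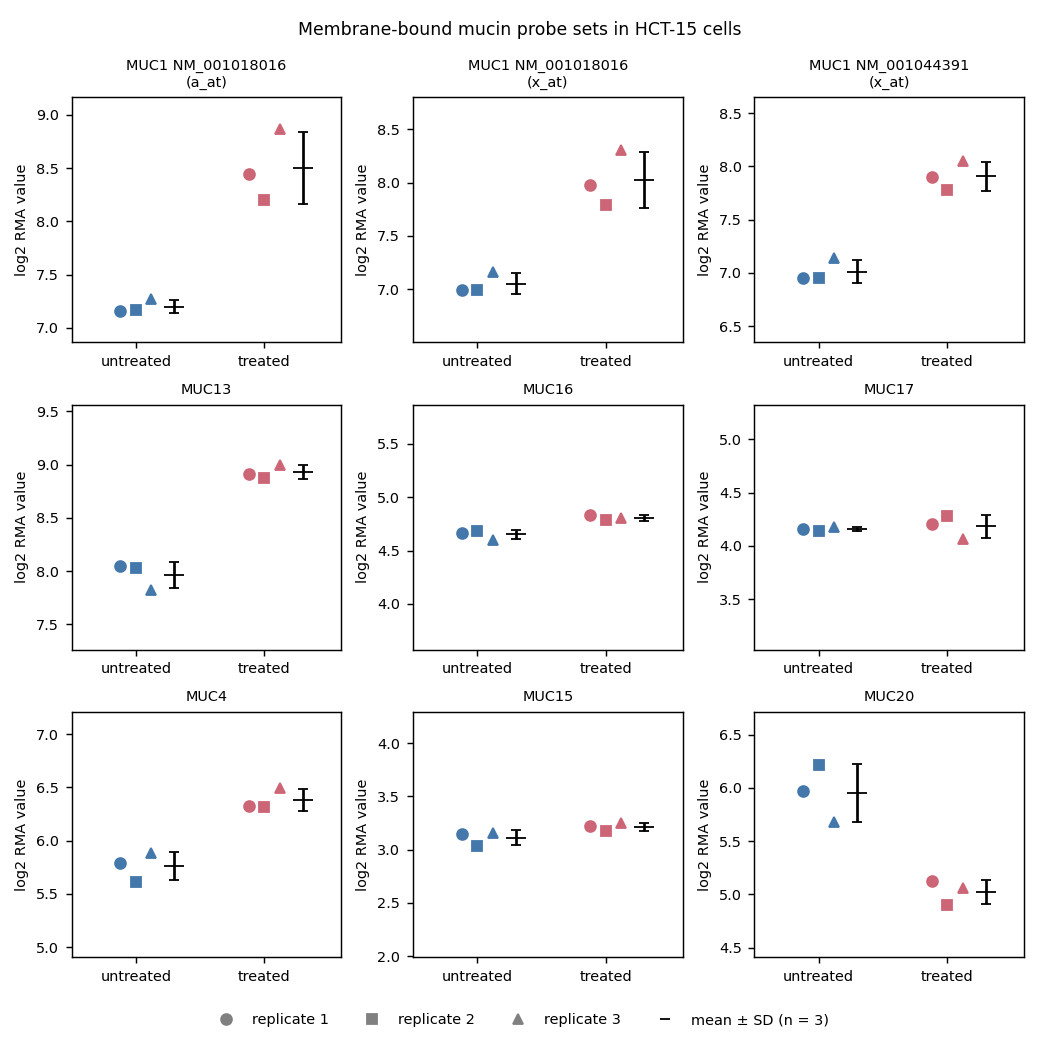
Log2 RMA value of each membrane-bound mucin probe set in the 3 untreated (blue) and 3 treated (red) arrays. Symbols mark replicates, black bars give mean ± SD (n = 3), and every panel spans the same number of log2 units. The treated values of the MUC1, MUC13 and MUC4 sets lie above all untreated values, and those of MUC20 lie below them.

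MUC1, a signalling mucin found on most epithelia, was measured by 3 probe sets. The set named NM_001018016 with the ending a_at, which marks transcripts of the same gene, read 7.16, 7.17 and 7.27 in untreated replicates 1 to 3 and 8.44, 8.20 and 8.87 in treated replicates 1 to 3. The groups did not overlap, and treated replicate 3 was the highest array. The mean went from 7.20 ± 0.06 to 8.50 ± 0.34 (SD, n = 3), a log2 change of 1.30 ± 0.14 (SE, limma, adjusted p = 3.3e-05).

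The set for the same transcript with the ending x_at, which marks probes that may also bind other sequences, read 6.99, 6.99 and 7.16 in untreated and 7.98, 7.79 and 8.31 in treated cells. Its log2 change was 0.98 ± 0.12 (1.97-fold, limma adjusted p = 8.39e-05). The third set, NM_001044391 with the ending x_at, read 6.95, 6.95 and 7.14 in untreated and 7.90, 7.78 and 8.05 in treated cells. It changed by 0.90 ± 0.09 (1.86-fold, limma adjusted p = 2.08e-05). In all 3 sets treated replicate 3 was the highest array and treated replicate 2 the lowest of the treated ones, and untreated replicate 3 was the highest of the untreated ones. The sets measure 1 gene in the same RNA and may share probes, so they are not independent measurements of MUC1.

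The a_at set gave the largest MUC1 rise, but no difference between the sets reached an adjusted p under 0.05, and with 3 arrays a group none could. Within each array, the a_at set exceeded the x_at set of the same transcript by 0.17, 0.18 and 0.10 in untreated cells and by 0.46, 0.41 and 0.56 in treated cells. No treated difference overlapped an untreated one, and the a_at set had risen by 0.33 ± 0.05 (SE) more on the log2 scale. Against the NM_001044391 set, the a_at set differed by 0.21, 0.22 and 0.13 in untreated and by 0.54, 0.43 and 0.82 in treated cells, so that its rise was larger by 0.41 ± 0.12. Each of these pairs had p = 0.1 in a two-sided exact permutation test over arrays, the smallest that 3 against 3 allows, and p = 0.15 after adjustment over the 3 pairs. Both x_at sets differed by only 0.04, 0.05 and 0.03 in untreated cells and by 0.08, 0.02 and 0.26 in treated cells, which overlap. Their rises differed by 0.08 ± 0.07 (exact permutation p = 0.4, also after adjustment). The widest gaps between sets were in treated replicate 3. Without it, the a_at rise was larger by 0.29 and 0.30 than the others, and the rises of both x_at sets differed by 0.01. Without treated replicate 2 the x_at sets differed by 0.13 (exact permutation p = 0.1). Without untreated replicate 3, whose title conflicts, the differences in the order given were 0.30, 0.38 and 0.08.

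**Figure D2:**
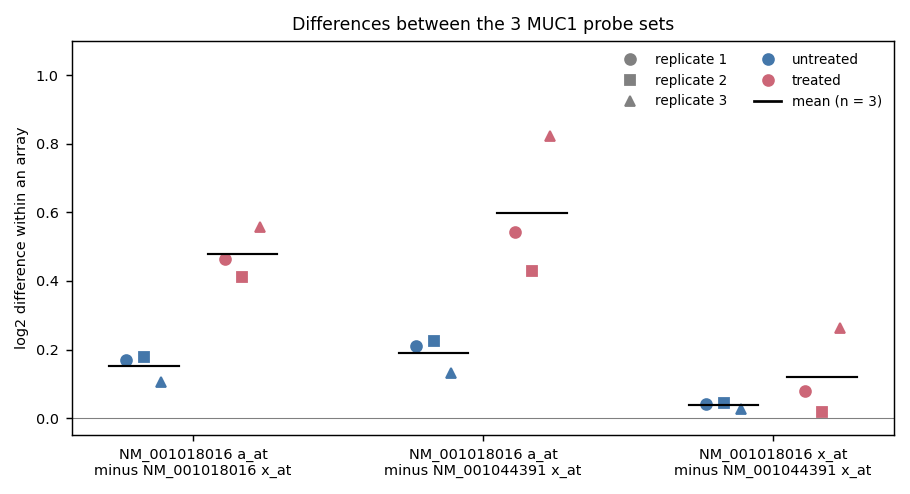
Difference in log2 value between each pair of MUC1 probe sets within the same array, for 3 untreated (blue) and 3 treated (red) arrays. Symbols mark replicates and black lines give group means; in the pairs with the a_at set all treated points lie above all untreated points, and in the pair of x_at sets they overlap.

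MUC13, a SEA-domain mucin of the gut epithelium with EGF-like domains, read 8.04, 8.03 and 7.82 in untreated replicates and 8.91, 8.88 and 9.00 in treated replicates. The groups were well apart, with untreated replicate 3 the lowest array. The mean went from 7.97 ± 0.12 to 8.93 ± 0.06 (SD, n = 3), a log2 change of 0.96 ± 0.08 (SE, limma adjusted p = 6.15e-06). The SD of the treated arrays was 0.06, against 0.34, 0.26 and 0.14 for the 3 MUC1 sets.

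MUC16, the very large SEA-domain mucin known as CA125, read 4.66, 4.69 and 4.60 in untreated cells and 4.83, 4.78 and 4.80 in treated cells. All treated values were above all untreated ones, as was so for 22.7% of all probe sets, but the log2 change was 0.16 (95% interval 0.0067 to 0.30) and missed the threshold (limma adjusted p = 0.104). MUC17, a SEA-domain mucin of the enterocyte brush border, read 4.16, 4.14 and 4.17 in untreated and 4.20, 4.28 and 4.07 in treated cells, which overlap. Its log2 change was 0.03 (95% interval -0.14 to 0.20, limma adjusted p = 0.83). Of the 4 SEA-domain genes measured, 2 rose and 2 were not called, against 19.7% of all genes rising.

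MUC4, a mucin with EGF-like domains that binds the receptor ERBB2, read 5.79, 5.62 and 5.88 in untreated replicates and 6.33, 6.31 and 6.50 in treated replicates. The groups did not overlap, and the mean went from 5.76 ± 0.13 to 6.38 ± 0.10 (SD, n = 3). The log2 change was 0.62 ± 0.09 (SE, limma adjusted p = 0.00027). Its probe set ends in s_at, which marks probes shared by transcripts that can come from more than 1 gene, as do those of MUC17 and of MUC6, GALNT6, GCNT1, ERBB3, COLEC12 and FUT2 below, so their values are less certain.

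MUC20, a small mucin that binds the receptor MET, read 5.97, 6.22 and 5.68 in untreated replicates and 5.12, 4.90 and 5.06 in treated replicates. All treated arrays were below all untreated ones, as was so for 23.4% of all probe sets, and untreated replicate 3 was the nearest to them. The mean went from 5.95 ± 0.27 to 5.03 ± 0.11 (SD, n = 3), a log2 change of -0.93 ± 0.12 (SE, limma adjusted p = 0.000163). The fall ranked 19 of the 163 falling genes by size, while among the 183 rising genes MUC1 ranked 28 by its a_at set, MUC13 46 and MUC4 81. By its x_at sets MUC1 would rank 42 and 50, on either side of MUC13. MUC4 and MUC20 lie next to each other on chromosome 3 with 0 genes between them in the RefSeq table, and they moved in opposite directions.

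MUC15, which lacks the SEA domain, read 3.15, 3.03 and 3.16 in untreated and 3.22, 3.17 and 3.25 in treated cells. The treated values were all higher, by a narrow margin, and the log2 change was 0.10 (95% interval -0.05 to 0.26, limma adjusted p = 0.319). MUC15, MUC16 and MUC17 have mean levels below 4.90, the level used to leave out the dimmest probe sets. RMA compresses differences at such levels, and background calls were not used here. Whether these genes are expressed was therefore not tested. The treated values of MUC20, 4.90 to 5.12, also lay close to that level.

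Untreated replicate 3, whose title reads as treated, did not decide any mucin call. Without it, the log2 changes were 1.34, 1.03 and 0.96 for the MUC1 sets, 0.89 for MUC13, 0.67 for MUC4 and -1.07 for MUC20, each still past the threshold in limma's test. Those of MUC15, MUC16 and MUC17 were 0.12, 0.13 and 0.04, still not called. Treated replicate 3 was the highest treated array for the MUC1 sets, MUC13, MUC4 and MUC15, each in the order replicate 3, 1, 2. That order was found in 48 of the 227 rising probe sets (21.1%), and treated replicate 3 was highest in 38.8% of them. Without treated replicate 3 the log2 change was 1.12 for the MUC1 a_at set, 0.93 for MUC13 and 0.56 for MUC4, all called.

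**Figure D3:**
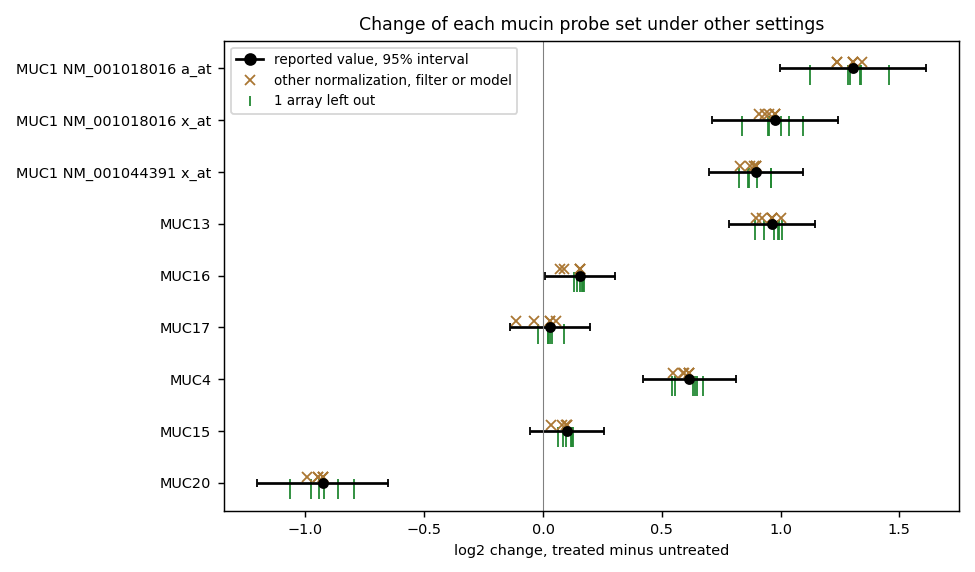
Log2 change of each mucin probe set, with its 95% interval in limma's fit (black), under other normalizations, filters or models (crosses) and with 1 array left out (ticks). The MUC1, MUC13 and MUC4 sets stay above 0 and MUC20 below 0 in each setting drawn, and MUC17 lies on both sides of 0.

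Secreted mucins have no membrane anchor. MUC2, MUC5B and MUC6 form gels, and MUC7 is a small soluble mucin of saliva. Of 6 listed, 4 were measured. None of these was called in limma's test, against 19.7% of all genes rising and 17.6% falling, and 0 had an unadjusted p under 0.05. They were MUC2 (5.57 to 5.67), MUC5B (5.75 to 5.58), MUC6 (6.28 to 6.30) and MUC7 (2.80 to 2.82). MUC5B was called as a fall after quantile normalization and after median centring. Whether secreted and membrane-bound mucins differ in their response was not tested. Among other transmembrane mucins and mucin-like carriers, 4 of 9 measured rose and 1 fell, against 19.7% and 17.6% of all genes, with a median log2 change of 0.08. MCAM, an adhesion molecule also known as MUC18, read 5.79, 6.04 and 5.77 in untreated and 7.75, 7.66 and 7.82 in treated cells (log2 change 1.88 ± 0.09 SE, limma adjusted p = 1.07e-07). CD44, the hyaluronan receptor, changed by 0.63 ± 0.08 (limma adjusted p = 0.000124), and PODXL, podocalyxin, by -0.47 ± 0.09 (adjusted p = 0.00179). The other rises were LAMP1 and LAMP2, the major lysosomal membrane glycoproteins. The CD44 set read 3.13 in untreated and 3.76 in treated cells, below 4.90, so whether CD44 is expressed was not tested. Leaving out probe sets of mean level under 4.90 left 3 rises in this list.

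The enzymes that start mucin-type O-glycans moved both ways, with 2 rises and 5 falls among 18 measured of 22 listed, against 19.7% and 17.6% of all genes, and a median log2 change of -0.07. There were 4 falls with quantile normalization and 6 with median centring, and 1 rise was left without treated replicate 2. GALNT6 went from 8.66 to 7.28 (log2 change -1.37 ± 0.12 SE, limma adjusted p = 7.99e-06), GALNT12 from 8.50 to 7.54 (-0.96 ± 0.08, adjusted p = 5.95e-06) and GALNT7 from 8.92 to 9.51 (0.59 ± 0.10, adjusted p = 0.000734). Of 12 measured genes that build and cap the cores, 4 rose and 3 fell, against the same 19.7% and 17.6% (4 and 4 after quantile normalization or median centring). ST6GALNAC2, which adds sialic acid to the first GalNAc, went from 7.64 to 8.56, and C1GALT1, which makes core 1, from 4.65 to 5.35. The untreated mean of C1GALT1 lay below 4.90. GCNT1, which makes the core 2 branch, went from 6.61 to 5.90. GCNT3, another core 2 enzyme, went the other way, from 5.26 to 5.80 (limma adjusted p = 0.000742). These lists were chosen with earlier results of these data known, so their counts are descriptions.

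Proteins that bind membrane-bound mucins or act with them had 4 rises and 3 falls among 15 measured of 19 listed, against 19.7% and 17.6% of all genes, and 2 rises and 3 falls after median centring. LGALS1, galectin-1, rose from 9.80 to 11.48 (log2 change 1.68 ± 0.10 SE, limma adjusted p = 3.96e-07). CD33, a sialic acid-binding lectin, rose by 0.57 ± 0.08 (adjusted p = 0.000168), and LGALS4, a galectin of the gut epithelium, changed by -0.51 ± 0.07 (adjusted p = 0.000291). Of the receptor kinases tied to mucins, the MET probe set read 8.48 in untreated and 8.82 in treated cells (limma adjusted p = 0.013), a call that was lost after median centring (adjusted p = 0.0511) and without treated replicate 1 (0.0645), in a range from 0.00424 upward. ERBB3, a partner of ERBB2, went from 10.44 to 10.00 (adjusted p = 0.00485). EGFR, ERBB2, CTNNB1 and MSLN had no matched probe set, and neither had any of 4 listed sheddases, the proteases that release mucin ectodomains.

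**Figure D4:**
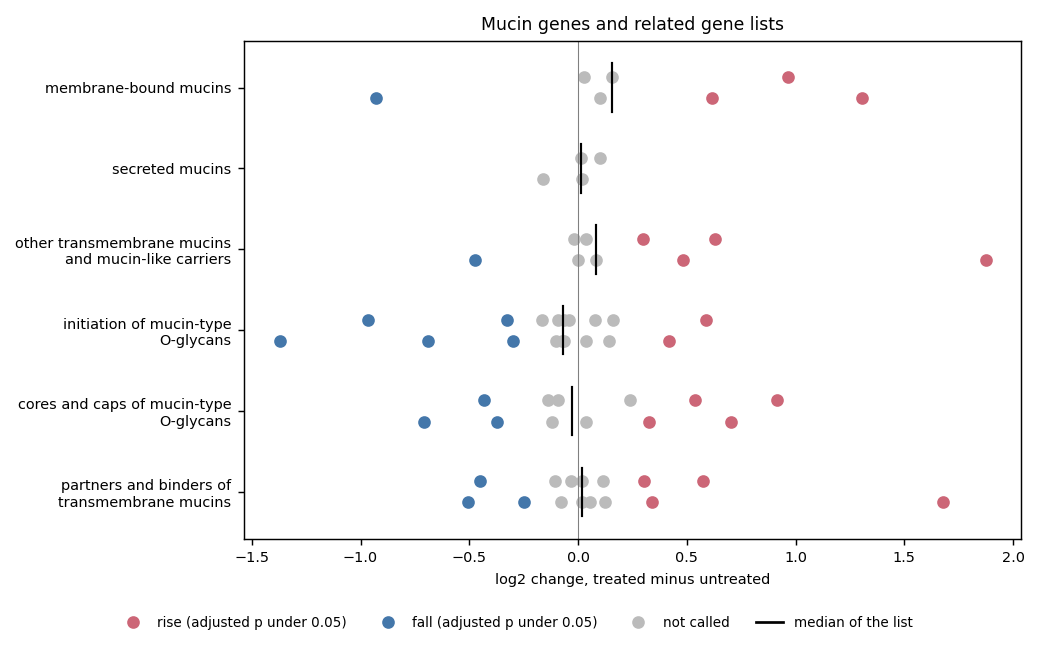
Log2 change (treated minus untreated) of each measured gene in the membrane-bound mucins and 5 related lists, 1 point per gene, with the list's median as a black line. Red and blue points passed an adjusted p under 0.05 as rises and falls, and grey points did not; the secreted mucins are all grey and the other lists hold both red and blue points.

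The genes nearest in pattern to each called mucin were found by the root mean square difference of log2 values over the 6 arrays, each centred on the gene's untreated mean, among 927 genes. Since the arrays fall into 2 groups, this measure is mostly the likeness of the change and of the treated spread. Nearest to MUC13 were LAMP3, a lysosomal membrane glycoprotein (0.044), ST6GALNAC2 (0.059) and SRGN, the granule proteoglycan serglycin (0.064). Nearest to MUC4 were the growth factor PDGFD (0.055), CD33 (0.065) and the cytokine CTF1 (0.083). MUC1, taken by its a_at set, had no neighbour as close. Its nearest were WNT6, a Wnt ligand (0.20), HYAL4 of the hyaluronidase family (0.21) and the scavenger receptor COLEC12 (0.21). The x_at sets rose less, with a smaller treated SD, and their neighbours were not sought. The genes named for MUC1 therefore hold for the a_at set only. Nearest to MUC20 were FUT2, which makes the H antigen (0.096), UST, a uronyl sulfotransferase (0.12), and GALNT12 (0.13). The means of SRGN, PDGFD and COLEC12 were below 4.90 in both groups, so whether these genes are expressed was not tested. The mean of HYAL4 was below 4.90 in untreated cells only (4.54).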

How the data were processed

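Biotinylated cRNA made from total RNA was hybridised to Affymetrix arrays (labels' protocols). The authors deposited log2 values, 1 column per array and 1 row per probe set; RMA is named per the submitters' processing notes, with version, settings and build not given in the sources used here. The log2 scale was taken from the range of the values. RMA forces arrays toward 1 distribution, which reduces a change shared by most genes. Columns of values left unused numbered 0.

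Probe sets were named by matching RefSeq transcripts without versions to the RefSeq gene table (GRCh38.p14): 1043 had 1 symbol, 26 identifiers did not match. Where a gene had several sets (93 genes), its brightest on average over the 6 arrays was used. A model with 1 treatment term was fitted to all 1259 probe sets (lmFit and eBayes, limma 3.58.1, R 4.3.3; two-sided, Benjamini-Hochberg). The steps were tested on simulated data.

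Named were all members, up to 3 called genes of smallest p in each related list and the 3 nearest genes of each called member. Genes named beside a count of 5 or fewer, and ERBB3, MET and GCNT3, were chosen after their values were seen. Members and lists were chosen with earlier results of these data known. Alternatives were quantile normalization, median centring, leaving out probe sets of mean level under 4.90, an intensity trend, array weights, a replicate block and leaving out each array. For genes, the lowest probe set was also used.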

Additional observations from a re-analysis of the deposited data

How the results depend on the processing

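All 9 mucin probe sets kept their call in each of the alternatives run, 12 for the MUC1, MUC4, MUC13 and MUC20 sets and 11 for MUC15, MUC16 and MUC17, which lie below the level kept when dim probe sets were left out. With the replicate number as a block, which changed no mucin call, adjusted p in limma's test was 0.000477 for the MUC1 a_at set, 0.00058 for MUC13, 0.00134 for MUC4 and 0.00324 for MUC20. Same-numbered arrays did not deviate together (correlations -0.27, 0.04 and -0.11), so the numbers were not taken as pairs. Between untreated and treated arrays of different numbers the correlations ran from -0.33 to 0.42. They were 0.42 for untreated 1 with treated 3, 0.41 for untreated 2 with treated 1 and 0.23 for untreated 3 with treated 2. The others were -0.10, -0.27 and -0.33. A block by these matches was not fitted. Whether any of these arrays share a batch was not tested. Leaving out 1 array at a time gave log2 changes of 1.12 to 1.45 for the MUC1 a_at set, 0.89 to 1.00 for MUC13, 0.54 to 0.67 for MUC4 and -1.07 to -0.79 for MUC20. MUC17, not called in any setting, was -0.11 after quantile normalization and -0.04 after median centring. The excess rise of the MUC1 a_at set over the x_at set of its transcript was 0.39 after quantile normalization. Taking the dimmest MUC1 set for the gene left 3 rises and 1 fall, and so did each other alternative. With 3 arrays a group, the exact permutation test of the differences between MUC1 sets cannot go below p = 0.1. The mucin calls come from limma's test.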
